A study of Homo sapiens with 6 samples.

Results

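Transcript levels of 39 genes of DNA replication and of the G1/S transition were examined in the established human melanoma cell line A375 after knockout of SOX10, the factor that specifies neural crest and melanocyte fates. The genes were taken from a list of replication licensing, fork, nucleotide and E2F genes, chosen with earlier results of these data known. All 39 were found by Ensembl identifier among the 58721 genes of the count table, and all 39 passed the filter on low counts that 19263 genes passed. There were 3 libraries of SOX10 knockout cells, titled as carrying a SOX10 guide (sg), and 3 of control cells of wild-type genotype, titled as carrying a guide for mCherry, a fluorescent protein. All 6 were grown in DMEM with fetal bovine serum. The labels do not say whether the knockout cells were a clone or a pool, nor whether replicates were separate cultures, so the spread behind each p-value is that among these 6 libraries and could be technical. The labels give no position for the guides.

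Gene counts summed to between 70075002 and 78148565 per library. Values are given as CPM, counts relative to the library size after TMM scaling, and log2 fold changes are of knockout over control. SOX10 itself stood at 47.2, 47.8 and 41.5 CPM in knockout replicates 1, 2 and 3, against 241, 237 and 223 CPM in control replicates 1, 2 and 3 (log2 fold change -2.36, edgeR adjusted p = 1.84e-07). Of the pigment cell markers, TYR was not tested and did not exceed 0.0139 CPM in any library of either group. PMEL and MLANA did not exceed 1.24 CPM in any library. Of 8 melanocyte and melanoma markers beside SOX10, 3 fell and 2 rose. S100B, DCT and S100A1 fell, with log2 fold changes of -4.68, -4.59 and -2.04. MITF rose (log2 fold change 1.27), as did TYRP1, which averaged 0.230 CPM in knockout and 0.0731 CPM in control libraries. The 5 blood markers summed to at most 0.222 CPM in knockout and 0.472 CPM in control libraries. Markers of other cell types moved with the knockout. For fibroblasts 4 of 6 markers rose and 1 fell (sums of 18.3 to 20.7 CPM in knockout, 10.5 to 14.1 CPM in control libraries, mostly LUM). LUM, COL1A1, COL1A2 and COL3A1 rose and PDGFRA fell. COL1A2 and COL3A1 were scarce, averaging 0.261 and 0.326 CPM in knockout, against 0.0552 and 0.0229 CPM in control libraries. For keratinocytes and epithelium 4 of 6 markers rose and 1 fell (231 to 243 CPM in knockout, mostly KRT18, 173 to 181 CPM in control libraries). For endothelium 2 of 4 markers rose and 1 fell (3.04 to 3.62 CPM in knockout, 6.06 to 8.30 CPM in control libraries). CDH1 and VWF, 1 marker each of epithelium and endothelium, stayed at or below 0.18 CPM. Of the other markers in these lists, EPCAM, KRT5, KRT8, KRT18, PECAM1 and CDH5 rose, and KRT14 and KDR fell. CDH5 averaged 1.96 CPM in knockout and 0.431 CPM in control libraries, and KDR 0.175 CPM in knockout and 6.32 CPM in control libraries. The part of these markers in the results was not tested.

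Before a chromosome is copied, origins are licensed: the origin recognition complex, CDC6 and CDT1 load the MCM2 to MCM7 ring onto DNA. At the start of S phase CDC45 and the GINS complex bind the ring and turn it into the active helicase, and polymerases, the sliding clamp PCNA and its loader follow. Many of these genes are transcribed in a burst at the G1/S boundary by E2F factors, which the retinoblastoma protein holds in check until cyclin-dependent kinases release them. Genes of G2 and mitosis are switched on later, through other promoter elements.

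The replication genes stood lower in SOX10 knockout cells as a group, by small amounts. By edgeR's quasi-likelihood test at a threshold of 0.05 on the adjusted p, 23 of the 39 members fell, none rose and 16 did not pass. No member was higher at an unadjusted p of 0.05 either, and DESeq2 and limma-voom called 0 members higher. Over all 19263 tested genes 14% fell and 14% rose, 28% in all. The fitted log2 fold change was below 0 for 38 of 39 members, against 52.2% of all tested genes, with RRM2 alone above 0. The median was -0.30, a level 18.8% lower, against a median of -0.02 over all tested genes. Among the 8987 tested genes at least as abundant as the least abundant member, 16.1% fell, 11.9% rose, 56.7% had a negative fold change and the median was -0.03.

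All 3 knockout libraries lay below all 3 control libraries in 28 members, and the groups overlapped in the other 11. Over all tested genes such a separation was seen in 21.5% below the controls and 20% above, and over the equally abundant genes in 24.7% below and 17% above. Summed over the 39 members, the level was 4287, 4369 and 4384 CPM in knockout replicates 1, 2 and 3, against 4964, 5038 and 5185 CPM in control replicates 1, 2 and 3, and the groups did not overlap in this sum. A lower level in RNA from whole cultures does not tell fewer cells in S phase from less of these transcripts in each cell. A test against a 1.2-fold change, which weighs the size of a change against its spread, called 4 members lower: E2F2, TYMS, MCM3 and E2F1. Over all 19263 tested genes the same test called 1501 lower and 1747 higher. The count of 4 is therefore not read as a result about the members as a group.

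**Figure D1:**
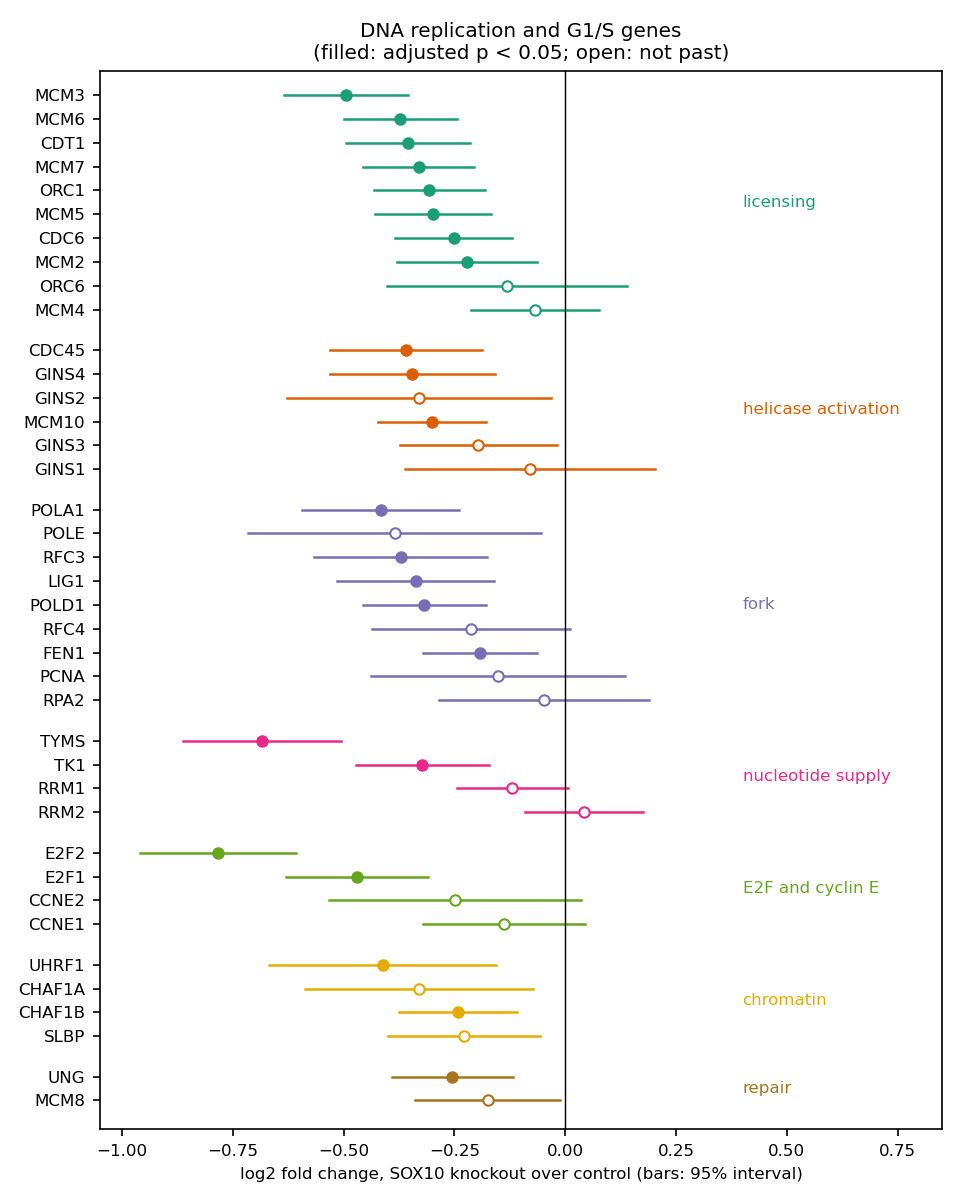
Log2 fold change of SOX10 knockout over control for the 39 members, ordered by role, with 95% intervals from the edgeR fit. Filled points passed an adjusted p of 0.05 and open points did not. All 23 filled points lie left of 0, and RRM2 is the only point to the right of it.

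Among the activators of the programme, both E2F members fell. E2F2 (ENSG00000007968; GRCh38 chromosome 1, 23506430 to 23531220, minus strand) is an activating E2F and was the lowest of the 39 members by fold change. It stood at 9.05, 8.65 and 7.88 CPM in knockout replicates 1, 2 and 3, against 14.9, 14.6 and 14.5 CPM in control replicates 1, 2 and 3. The groups were far apart relative to their spread, and the level was 41.9% lower in knockout (log2 fold change -0.78, SE 0.08, edgeR adjusted p = 9.80e-05). E2F1 (chromosome 20, 33675683 to 33686404, minus strand), the first described member of the family, stood at 20.5, 19.9 and 19.4 CPM in the knockout libraries, against 26.4, 29.7 and 26.8 CPM in the control libraries. These groups did not overlap either, and E2F1 was 27.8% lower (log2 fold change -0.47, SE 0.07, adjusted p = 0.00121).

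The E-type cyclins, which activate CDK2 at the G1/S boundary and are themselves E2F targets, did not pass the test. CCNE1 averaged 19.4 ± 1.12 CPM in knockout and 21.3 ± 1.59 CPM in control libraries (SD, n = 3 each), with the groups just separated (log2 fold change -0.14, 95% interval -0.32 to 0.04, adjusted p = 0.253). CCNE2 stood at 31.9, 39.1 and 43.5 CPM in knockout, against 40.9, 44.1 and 51.0 CPM in control libraries, and these groups overlapped (log2 fold change -0.25, 95% interval -0.53 to 0.04, adjusted p = 0.186). CCNE2 shares 1629 exon bases with INTS8 on the opposite strand, and without a stated strand setting of the counting the reads of that stretch cannot be assigned with certainty.

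**Figure D2:**
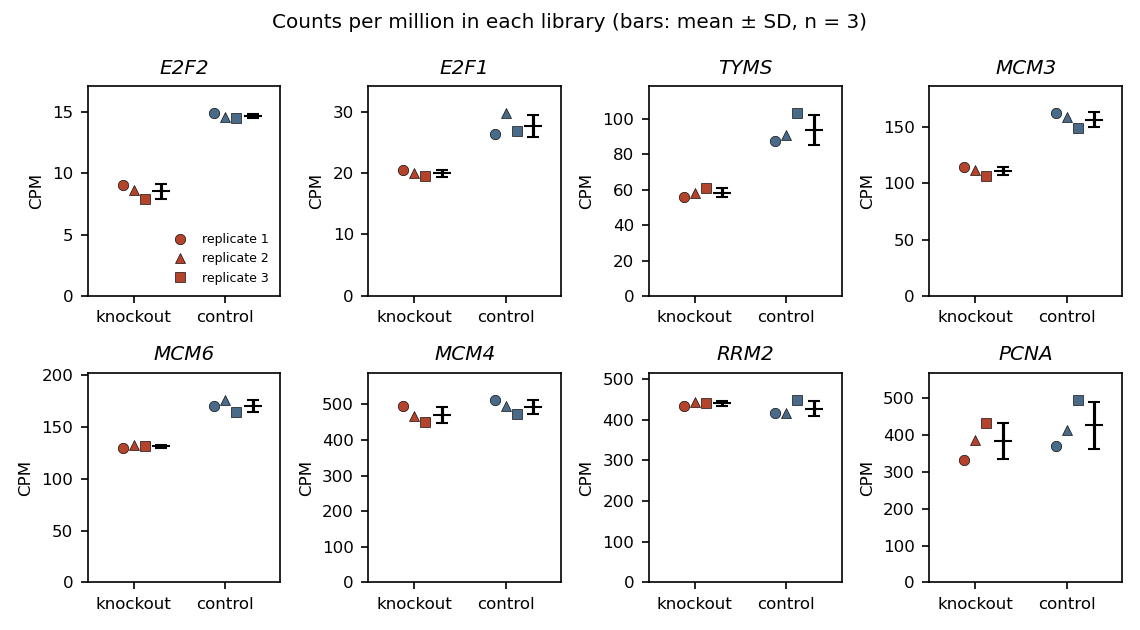
CPM in each library for 8 members, with knockout left of control, a symbol per replicate number, and the mean ± SD of the 3 libraries beside each group. E2F2, E2F1, TYMS, MCM3 and MCM6 are separated between the groups, whereas MCM4, RRM2 and PCNA overlap.

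The promoters of the 4 members that passed the test against a 1.2-fold change are shown, with that of MCM6, which holds the densest matches among the windows shown, and that of RRM2, the member that did not stand lower. Each window runs from 250 bases before to 50 bases after the annotated start, 5′ to 3′ on the gene's strand, from RefSeq on GRCh38.p14. Capitals mark matches to an E2F motif, spelled TTTCCCGC, TTTCGCGC, TTTGCCGC or TTTGGCGC and searched on both strands.
E2F2 (chr1:23531184-23531483, minus strand): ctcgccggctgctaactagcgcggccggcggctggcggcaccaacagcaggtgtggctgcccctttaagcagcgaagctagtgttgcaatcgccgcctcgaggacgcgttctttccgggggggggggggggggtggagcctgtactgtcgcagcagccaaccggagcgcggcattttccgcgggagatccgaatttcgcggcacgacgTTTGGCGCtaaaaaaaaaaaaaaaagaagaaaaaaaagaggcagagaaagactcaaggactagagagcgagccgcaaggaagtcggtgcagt
E2F1 (chr20:33686336-33686635, minus strand): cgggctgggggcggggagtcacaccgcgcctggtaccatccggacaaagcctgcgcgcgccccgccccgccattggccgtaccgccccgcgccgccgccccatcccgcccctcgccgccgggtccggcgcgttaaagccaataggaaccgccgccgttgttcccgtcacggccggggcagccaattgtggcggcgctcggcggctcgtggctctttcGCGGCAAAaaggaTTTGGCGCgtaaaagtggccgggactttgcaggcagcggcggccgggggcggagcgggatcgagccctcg
TYMS (chr18:657403-657702, plus strand): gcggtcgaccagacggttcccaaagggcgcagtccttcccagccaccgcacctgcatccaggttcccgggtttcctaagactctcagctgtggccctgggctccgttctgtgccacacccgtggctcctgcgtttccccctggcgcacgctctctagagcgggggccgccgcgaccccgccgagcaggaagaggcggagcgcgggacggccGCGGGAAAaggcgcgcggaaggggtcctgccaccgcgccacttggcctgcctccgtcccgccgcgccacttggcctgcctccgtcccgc
MCM3 (chr6:52284693-52284992, minus strand): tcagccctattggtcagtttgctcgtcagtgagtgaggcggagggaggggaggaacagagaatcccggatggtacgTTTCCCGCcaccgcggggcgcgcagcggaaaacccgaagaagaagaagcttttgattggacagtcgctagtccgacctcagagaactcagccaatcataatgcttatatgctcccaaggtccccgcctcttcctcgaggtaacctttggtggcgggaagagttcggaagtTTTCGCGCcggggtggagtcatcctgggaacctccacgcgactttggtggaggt
MCM6 (chr2:135876394-135876693, minus strand): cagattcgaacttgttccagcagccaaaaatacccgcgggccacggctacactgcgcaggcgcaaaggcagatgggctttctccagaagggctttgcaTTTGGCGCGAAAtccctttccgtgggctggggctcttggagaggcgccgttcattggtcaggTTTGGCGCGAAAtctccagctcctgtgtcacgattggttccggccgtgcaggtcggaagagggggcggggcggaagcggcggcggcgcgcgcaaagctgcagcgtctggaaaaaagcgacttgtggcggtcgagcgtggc
RRM2 (chr2:10122489-10122788, plus strand): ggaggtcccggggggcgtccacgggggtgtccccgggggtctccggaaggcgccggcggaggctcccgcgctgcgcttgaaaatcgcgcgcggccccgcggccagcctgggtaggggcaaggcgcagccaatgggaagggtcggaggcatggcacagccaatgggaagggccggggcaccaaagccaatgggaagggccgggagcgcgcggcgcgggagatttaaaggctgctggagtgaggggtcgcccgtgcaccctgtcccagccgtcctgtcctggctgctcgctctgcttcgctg

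E2F2 and TYMS held 1 match each and E2F1 and MCM3 held 2 each. MCM6 held 4, as a pair of sites in each of which matches on opposite strands overlap. RRM2 has 2 annotated windows and neither held these letters, which says nothing about binding elsewhere. Of the 39 members 34 had a window in the RefSeq table. MCM4, MCM5, GINS4, RPA2 and CCNE2 were not matched there.

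An E2F match was found in 20 of the 34 members with a window (58.8%), against 3.99% of the 27305 genes of the table and 3.31% of its 35116 promoters. Among the other replication and G1/S genes described below, 18 of 52 with a window held a match (34.6%). These 20 members held 28 matches, 21 of them with their first base within 100 bases of the start. Over all 28 matches the first base ran from 187 bases before the start to 27 bases after it. Matches stood in 6 of 8 licensing genes, 3 of 5 helicase activation genes and 5 of 8 fork genes, and in 1 of 4 nucleotide supply genes. Among members that fell, 14 of 21 held a match (66.7%), and among those that did not pass the test 6 of 13 (46.2%), a description that rests on few genes.

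The genes of G2 and mitosis held other motifs. The cell cycle genes homology region, the element of G2 and mitosis promoters, spelled TTTGAA or TTCGAA on both strands, was found in 3 of 34 members (8.82%), against 24 of 30 G2/M and mitosis genes (80%) and 19.5% of all genes. E2F matches went the other way, with 3 of 30 (10%) in the G2/M genes. The CCAAT box, spelled CCAAT, was present in 21 of 34 members (61.8%), against 24 of 30 G2/M genes (80%) and 39.7% of all genes. A core bound by SOX proteins, spelled ACAATG or ACAAAG, was found in 7 of 34 members (20.6%), against 28.4% of all genes. It was held by 6 of 21 members that fell (28.6%) and 1 of 13 that did not pass (7.69%), again a description that rests on few genes. Of the 28 E2F matches 1 overlapped another of the motifs searched.

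**Figure D3:**
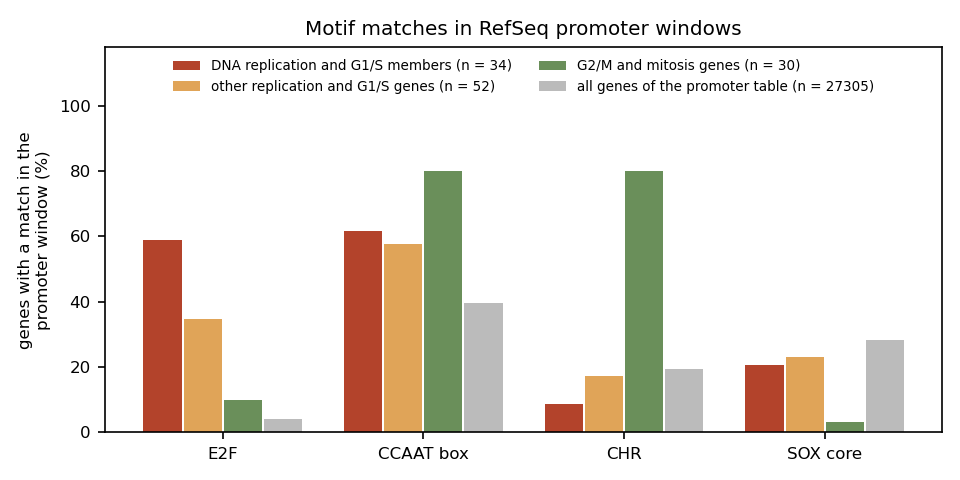
Percentage of genes with at least 1 match to each motif in the RefSeq promoter window, for the members, the other replication and G1/S genes, the G2/M and mitosis genes and all genes of the table. The E2F motif is most frequent in the members (58.8%), and the cell cycle genes homology region (CHR) in the G2/M and mitosis genes (80%).

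Of the 10 licensing genes 8 fell, with a median log2 fold change of -0.30. Among the loaders, ORC1, the subunit of the origin recognition complex whose level follows the cell cycle, stood at 64.9, 65.1 and 62.1 CPM in knockout, against 79.0, 79.9 and 78.7 CPM in control libraries (log2 fold change -0.31, adjusted p = 0.00333). CDT1, which brings the MCM ring to the origin and is destroyed once S phase begins, stood at 24.1, 22.5 and 23.9 CPM in knockout, against 29.6, 30.2 and 30.3 CPM in control libraries (log2 fold change -0.36, adjusted p = 0.00268). CDC6, the ATPase that loads the ring with CDT1, averaged 141 ± 5.16 CPM in knockout and 168 ± 4.12 CPM in control libraries (SD, n = 3 each), also lower (log2 fold change -0.25, adjusted p = 0.0115, but 0.0561 without control replicate 2). ORC6 did not pass, with 59.2 ± 6.77 CPM in knockout and 64.9 ± 9.44 CPM in control libraries (log2 fold change -0.13, 95% interval -0.40 to 0.14, adjusted p = 0.475).

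Among the 6 subunits of the replicative helicase ring, 5 fell and MCM4 did not pass. MCM3 (chromosome 6, 52264009 to 52284881, minus strand) stood at 114, 112 and 107 CPM in knockout, against 162, 159 and 149 CPM in control libraries. The groups were well separated, and its level was 29.1% lower (log2 fold change -0.50, SE 0.06, edgeR adjusted p = 3.92e-04). MCM6 stood at 129.9, 133 and 132 CPM in knockout, against 169.8, 176 and 165 CPM in control libraries (log2 fold change -0.37, adjusted p = 0.00119). MCM7 was 20.5% lower (adjusted p = 0.00209) and MCM5 18.7% lower (adjusted p = 0.00482), each with all knockout libraries below all controls. MCM2 was at the margin, 14.3% lower with an adjusted p of 0.0429, which lay between 0.0723 and 0.170 when any library but control replicate 3 was left out, each in turn. It also lost the call in DESeq2, with RLE scaling, with total counts, without a filter and with a minimum of 1 CPM. It passed in 4 of the 15 alternatives described below. An opposite-strand neighbour of MCM2, TPRA1, which shares 45 exon bases with it and rose (log2 fold change 0.42, adjusted p = 0.00382), had 14.4% as many reads as MCM2.

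MCM4 stood at 495, 467 and 450.1 CPM in knockout, against 512, 496 and 473 CPM in control libraries, so that the groups overlapped (log2 fold change -0.07, 95% interval -0.21 to 0.08, adjusted p = 0.491). Its interval lay above the estimate for MCM3 and for MCM6; the difference between subunits was not tested. On a scale of CPM per kilobase of annotated exon, levels in knockout libraries were 108 for MCM4, 86.7 for MCM7, 35.2 for MCM6, 34.6 for MCM3, 28.7 for MCM2 and 20.7 for MCM5. In control libraries they were 114 for MCM4, 109 for MCM7, 45.6 for MCM6, 48.7 for MCM3, 33.5 for MCM2 and 25.5 for MCM5. The ring takes each subunit once, and in both groups MCM4 and MCM7 transcripts stood above the other 4 per length.

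Of the 6 helicase activation genes 3 fell, with a median of -0.32. MCM10, which helps the loaded helicase to start unwinding, stood at 89.4, 86.3 and 87.4 CPM in knockout, against 108, 107 and 109 CPM in control libraries (log2 fold change -0.30, adjusted p = 0.00309). CDC45, the activating subunit of the helicase, stood at 31.6, 34.1 and 34.4 CPM in knockout, against 40.3, 41.7 and 46.5 CPM in control libraries (log2 fold change -0.36, adjusted p = 0.00749). Neither gene's groups overlapped. The 4 GINS subunits, which bind the ring beside CDC45, had log2 fold changes of -0.08 for GINS1, -0.33 for GINS2, -0.20 for GINS3 and -0.35 for GINS4. Of these only GINS4 passed (adjusted p = 0.0133, but 0.0755 without knockout replicate 2). GINS2 averaged 49.2 ± 5.62 CPM in knockout and 61.8 ± 10.5 CPM in control libraries (SD, n = 3 each), a difference as large as that of MCM10 with a wider spread, and the groups overlapped (adjusted p = 0.0978).

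At the fork 5 of 9 genes fell, with a median of -0.32. POLA1, the catalytic subunit of the polymerase that makes primers, was the lowest by fold change among the genes of the fork, at 93.0, 90.4 and 82.2 CPM in knockout, against 125, 121 and 108 CPM in control libraries (log2 fold change -0.42, adjusted p = 0.00410). POLD1, the catalytic subunit of the lagging-strand polymerase, was 19.8% lower (adjusted p = 0.00460), and LIG1, the ligase that joins Okazaki fragments, 20.9% lower (adjusted p = 0.0119). POLE, the catalytic subunit of the leading-strand polymerase, differed by a similar amount but with overlapping groups, at 56.6, 47.1 and 41.7 CPM in knockout, against 73.9, 63.6 and 52.3 CPM in control libraries (log2 fold change -0.38, 95% interval -0.72 to -0.05, adjusted p = 0.0841). LIG1 missed the threshold without control replicate 2 (adjusted p = 0.0588).

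RFC3, a subunit of the clamp loader, averaged 145 ± 11.8 CPM in knockout and 187 ± 15.9 CPM in control libraries (SD, n = 3 each; log2 fold change -0.37, adjusted p = 0.0120, but 0.0511 without knockout replicate 2). RFC4, another subunit, did not pass (log2 fold change -0.21, adjusted p = 0.152). FEN1, the flap nuclease that trims Okazaki fragments, was 12.5% lower (adjusted p = 0.0340). FEN1 shares 166 exon bases with TMEM258 on the opposite strand, which did not pass (adjusted p = 0.802), and 49 with FADS2 on its own strand, which fell (adjusted p = 0.0332). It lost the call in 5 of 6 fits that left out a library (adjusted p = 0.0589 to 0.148, kept only without control replicate 3). PCNA, the clamp itself, stood at 333, 385 and 431 CPM in knockout, against 369.6, 413 and 495 CPM in control libraries, overlapping between groups (log2 fold change -0.15, 95% interval -0.44 to 0.13, adjusted p = 0.430). RPA2, a subunit of the single-strand binding protein, was at 117 ± 12.5 CPM in knockout and 121 ± 13.6 CPM in control libraries (adjusted p = 0.784). The count of fork genes called was 3 without knockout replicate 2 and also 3 without control replicate 2.

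The nucleotide supply genes were split. TYMS (chromosome 18, 657604 to 673578, plus strand), the thymidylate synthase that is the target of fluorouracil, stood at 55.8, 58.2 and 61.0 CPM in knockout, against 87.3, 90.8 and 103 CPM in control libraries. The groups were far apart, with knockout 37.7% lower (log2 fold change -0.68, SE 0.08, edgeR adjusted p = 2.48e-04). TYMS shares 967 exon bases with ENOSF1 on the opposite strand, which had 20.8% as many reads and stood at 16.1 ± 1.04 CPM in knockout and 15.5 ± 0.596 CPM in control libraries (adjusted p = 0.648). TK1, the thymidine kinase of the salvage route, fell, at 73.9, 76.6 and 79.6 CPM in knockout, against 89.7, 98.3 and 99.8 CPM in control libraries (log2 fold change -0.32, adjusted p = 0.00645).

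The subunits of ribonucleotide reductase, which makes the deoxynucleotides, did not pass. RRM2, the small subunit that limits activity in S phase, stood at 434, 445 and 441 CPM in knockout, against 417, 416 and 449 CPM in control libraries, and the groups overlapped (log2 fold change 0.04, 95% interval -0.09 to 0.18, adjusted p = 0.653). RRM1, the large subunit, stood at 255, 265 and 257 CPM in knockout, against 274, 281 and 288 CPM in control libraries, which were separated by a narrow margin (log2 fold change -0.12, 95% interval -0.24 to 0.01, adjusted p = 0.151). Both intervals lay wholly above that of TYMS, -0.86 to -0.51.

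Of the 4 genes of chromatin copying 2 fell. UHRF1, which reads hemimethylated DNA and brings the maintenance methyltransferase, stood at 117, 105 and 94.4 CPM in knockout, against 157, 144 and 120.4 CPM in control libraries (log2 fold change -0.41, adjusted p = 0.0256). CHAF1B, a subunit of the chaperone that deposits histones at the fork, was 15.5% lower (adjusted p = 0.0150). Its partner CHAF1A was 20.4% lower with overlapping groups and did not pass (adjusted p = 0.0612), nor did SLBP, which binds histone mRNA, at 119 ± 8.40 CPM in knockout and 139 ± 8.57 CPM in control libraries (SD, n = 3 each; adjusted p = 0.0518). These calls were unstable. UHRF1 missed the threshold without control replicate 1, control replicate 2, knockout replicate 2 or knockout replicate 3 (adjusted p = 0.0802 to 0.0990) and CHAF1B without control replicate 2, knockout replicate 1 or knockout replicate 2 (0.0512 to 0.0756), so that the count of called genes was 0 without control replicate 2 or knockout replicate 2 and 1 without control replicate 1 or knockout replicate 1.

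Of the 2 repair genes, UNG, the glycosylase that removes uracil from DNA, fell to 109 ± 1.85 CPM in knockout, against 131 ± 6.28 CPM in control libraries (SD, n = 3 each; log2 fold change -0.26, adjusted p = 0.0127, but 0.0717 to 0.0750 without control replicate 2 or knockout replicate 2). MCM8, an MCM paralogue that acts in recombination, stood at 149, 138 and 130.3 CPM in knockout, against 166, 156 and 149.5 CPM in control libraries and did not pass (log2 fold change -0.18, adjusted p = 0.107).

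The 16 members that missed the threshold had, at the median, a wider spread within both groups. The test itself depends on this spread, so the difference is partly built in. Their log2 fold changes ran from -0.38 (POLE) to 0.04 (RRM2), against -0.78 (E2F2) to -0.19 (FEN1) in the 23 that fell. The median standard error of the 16 was 0.10 on the log2 scale, against 0.06 in the 23 that fell. Their median coefficient of variation was 9.69% in knockout and 11.1% in control libraries, against 3.65% in knockout and 4.39% in control libraries for those that fell. Differences between replicates went with transcript length. Over 10870 tested genes of at least 5 CPM the difference of replicate 3 from replicate 1 correlated with log2 exon length at Pearson r = -0.54 in knockout and -0.57 in control libraries, and over the 39 members at -0.65 in knockout and -0.66 in control libraries, as a description across genes that share the same libraries. PCNA, with 1.47 kb of exon, was higher in replicate 3 than in replicate 1 by 0.37 in knockout and 0.42 in control libraries on the log2 scale. POLE, with 7.84 kb, differed the other way, by -0.44 in knockout and -0.49 in control libraries.

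**Figure D4:**
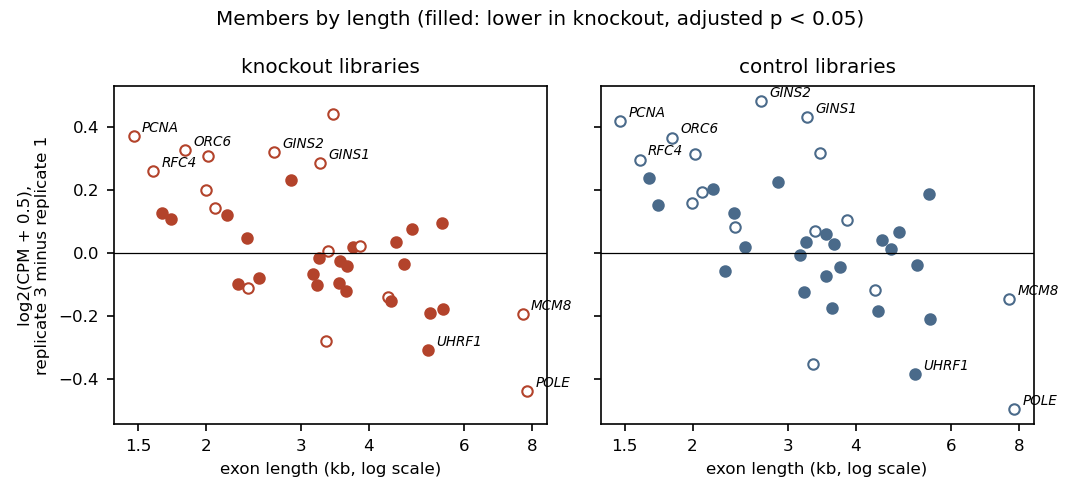
Difference of replicate 3 from replicate 1, in log2(CPM + 0.5), against annotated exon length in kilobases on a log scale, for the 39 members in knockout (left) and control (right) libraries. Filled points fell in knockout at an adjusted p of 0.05. Short genes such as PCNA lie above 0 and long genes such as POLE below 0 in both groups.

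The log2 fold change between the groups was weakly related to length, with Pearson r = -0.04 over the 10870 genes and -0.16 over the 39 members. By rank, Spearman rho was -0.10 over the 10870 genes and -0.24 over the 39 members. With an offset for each library's length trend, an alternative chosen after the data were seen, 26 members fell and none rose, and POLE, RFC4 and SLBP passed in addition.

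Beyond the 39 members, 65 further genes of replication and the G1/S transition were measured: 15 fell, 3 rose and 47 did not pass, with a median of -0.10, against 14% lower and 14% higher over all tested genes. Whether this list differs from the 39 members was not tested. In the licensing and fork genes of this list the share that fell was near that of all tested genes, so their counts are no result about those groups. Of the 7 further licensing genes 1 fell, MCMBP, which binds free MCM subunits (log2 fold change -0.25, adjusted p = 0.0392). The remaining subunits of the origin recognition complex that were measured, ORC2, ORC3, ORC4 and ORC5, are named after their values were seen; they had log2 fold changes of 0.08, 0.03, 0.09 and 0.16, with none past the test (adjusted p = 0.310 to 0.771). The 95% interval of ORC2 was -0.06 to 0.22 and that of ORC1 -0.43 to -0.18. Of 8 further helicase activation genes TICRR, which recruits CDC45, fell to 26.7 ± 4.38 CPM in knockout, against 38.3 ± 5.46 CPM in control libraries (SD, n = 3 each; log2 fold change -0.52, adjusted p = 0.0230), as did MTBP, which acts with it (-0.21, adjusted p = 0.0405). Of 24 further fork genes 3 fell: the clamp loader subunits RFC5 (-0.28, adjusted p = 0.0327) and RFC2 (-0.26, adjusted p = 0.0379), which had the smallest p, and POLA2, named after its values were seen, with the lowest fold change of the 3 (-0.34, adjusted p = 0.0401). Of 4 further chromatin genes 2 fell, RBBP4 (-0.33, adjusted p = 0.00400) and the histone chaperone gene ASF1B (-0.28, adjusted p = 0.00645). The count of 15 depended on single libraries: it was 6 without knockout replicate 2, 7 without control replicate 2 and 9 without knockout replicate 1. MCMBP, TICRR, MTBP, RFC5, RFC2 and POLA2 each lost the call in at least 4 of the 6 fits that left out a library.

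All 3 further genes that rose had roles in nucleotide supply or in E2F control. SAMHD1, which breaks down deoxynucleotides, stood at 68.9, 68.3 and 67.5 CPM in knockout, against 45.2, 43.8 and 46.5 CPM in control libraries (log2 fold change 0.59, SE 0.06, edgeR adjusted p = 8.08e-05). RRM2B, the p53-induced form of the small reductase subunit, stood at 161, 177 and 192 CPM in knockout, against 108, 116 and 133 CPM in control libraries (log2 fold change 0.57, adjusted p = 0.00242). Both were separated from control without overlap, while RRM2 was not.

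The 16 further genes of the E2F and cyclin E group included those with the widest changes, 6 falling and 1 rising. E2F7, an atypical E2F that represses the programme, rose and stood at 131, 112 and 107 CPM in knockout, against 69.8, 59.1 and 53.6 CPM in control libraries, 91.8% higher (log2 fold change 0.94, SE 0.11, edgeR adjusted p = 3.28e-04). Its close relative E2F8, also a repressor, fell, at 11.7, 11.0 and 9.44 CPM in knockout, against 17.4, 16.7 and 16.1 CPM in control libraries (log2 fold change -0.64, adjusted p = 9.51e-04). CDK2, the kinase that cyclin E activates, fell furthest, at 79.1, 76.8 and 75.8 CPM in knockout, against 119.8, 123 and 131 CPM in control libraries (log2 fold change -0.69, SE 0.06, adjusted p = 4.71e-05). None of these genes' groups overlapped. E2F3, the third activating E2F, named after its values were seen, fell too (-0.40, adjusted p = 0.00194). E2F4 and E2F5, which mostly act as repressors, and the pocket protein genes RB1 and RBL1, likewise named afterwards, did not pass (log2 fold changes 0.07, 0.19, -0.18 and -0.05, adjusted p = 0.0820 to 0.612).

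**Figure D5:**
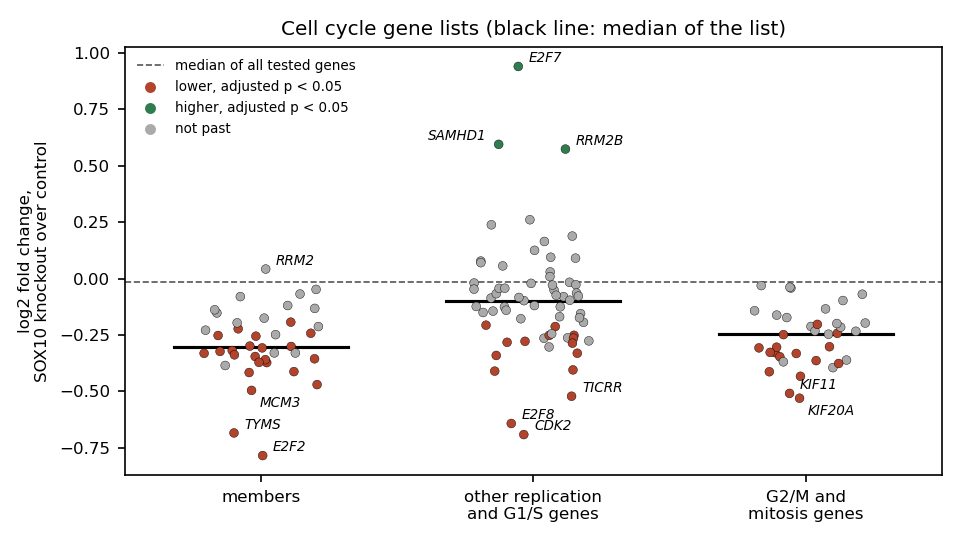
Log2 fold change of SOX10 knockout over control for the 39 members, 65 other replication and G1/S genes and 35 G2/M and mitosis genes, a point per gene, with the median of each list as a black line and the median of all tested genes dashed. The medians of the lists are -0.30, -0.10 and -0.25, and the only points past the threshold above 0 are E2F7, SAMHD1 and RRM2B.

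Genes of G2 and mitosis were lower as well. Of 35, 16 fell and none rose in edgeR, against 14% lower and 14% higher over all tested genes, all 35 having a negative log2 fold change, with a median of -0.25 against -0.30 in the replication members, and whether the lists differ was not tested. The kinesin genes KIF20A (log2 fold change -0.53, adjusted p = 1.12e-04) and KIF11 (-0.51, adjusted p = 3.00e-04) had the smallest p of that list. Its count was 7 without knockout replicate 2 and 10 without control replicate 2.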

How the data were processed

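RNA-seq counts of 6 libraries (3 SOX10 knockout, 3 control) were analysed. Values were deposited as whole-number counts of reads for each gene. HISAT2 and HTSeq with build hg38 are named per the submitters' processing notes, and a stranded mRNA kit per the labels' protocols. The sources used here give no versions, strand setting or annotation release. All 58721 identifiers matched GENCODE release 29, which gave coordinates and exon lengths (union of exons of the basic set); 58207 had a current symbol.

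Counts were tested in edgeR 4.0.16 (R 4.3.3): filterByExpr (19263 genes), TMM scaling, two-sided quasi-likelihood test, no covariates, Benjamini-Hochberg adjustment over all tested genes, threshold 0.05. Standard errors and 95% intervals come from that fit. At 70075002 to 78148565 counts per library a floor of 3 counts is at most 0.0428 CPM, and floors cover counting error only. Replicates of a group differed beyond sampling noise. The procedure was tested on simulated counts.

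The members, further gene lists, tests and motifs were chosen with earlier results of these data known. Every member is named. Of the further genes, up to 2 per role and direction with the smallest p past the threshold were named, of the G2/M list 2, and others are said to be named afterwards. A gene that this rule would name is not reported here. Alternatives were DESeq2 1.42.0, limma-voom (limma 3.58.1), RLE scaling, total counts, no filter, a minimum of 1 CPM (in 3 libraries), a block for replicate number, omission of single libraries, glmTreat against a 1.2-fold change and, added later, an offset for exon length. Named copies of members annotated as pseudogenes held at most 0.216% of the member's reads. Plots were made with Python 3.11.15 and matplotlib 3.10.9.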

Additional observations from a re-analysis of the deposited data

How the results depend on the processing

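No member rose under any of the 15 alternatives, and 36 of 39 had a negative log2 fold change in all of them. E2F2, TYMS, MCM3 and E2F1 passed in every alternative, and 14 of the 23 called members passed in all 6 fits that left out a library. The count of members that fell (23) stayed within 16 to 25 when a library was left out and was 24 in DESeq2, 23 in limma-voom and 20 with total counts. Against a 1.2-fold change it was 4, with 1 licensing gene, 1 nucleotide supply gene and 0 genes of helicase activation, fork, chromatin or repair, while 4 other replication and G1/S genes and 2 G2/M genes fell and, over all genes, 1501 fell and 1747 rose.

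Deviations from the group means correlated at 0.82 between the libraries numbered 1, 0.06 between those numbered 2 and 0.86 between those numbered 3, over 10870 genes. Each knockout library correlated best with the control library of its own number, whereas control replicate 2 did so with knockout replicate 1 (0.40). Deviations from a mean of 3 libraries depend on each other, so the libraries numbered 2 cannot settle whether the numbers pair the samples. The labels do not say what the numbers share, and the main test did not use them. As a hint from the data and not from the design, the replicate number as a block raised the calls to 37 members lower and 0 higher, and to 5176 genes lower and 4637 higher over all genes. By role the block gave 6 helicase activation, 8 fork, 4 E2F and cyclin E, 4 chromatin and 2 repair genes, and 34 other replication and G1/S genes lower and 8 higher, with 32 G2/M genes lower. RRM2 and RPA2 were the members not called.

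With total counts in place of TMM, medians were -0.26 (all members), -0.26 (licensing), -0.27 (helicase activation), -0.28 (fork), -0.18 (nucleotide supply) and -0.17 (repair), and 1 chromatin gene was called. The fork median was -0.30 both with at least 1 CPM in 3 libraries and with the length offset. Leaving out a library gave 1794 to 2958 genes lower over all genes, 3 to 6 fork, 0 to 3 chromatin and 0 to 1 repair genes, 6 to 17 other replication and G1/S genes and 7 to 17 G2/M genes, with medians of -0.34 to -0.24 (helicase activation) and -0.31 to -0.27 (fork). Beyond the construction of fewer libraries, a block or another null, the cause was not tested. With 3 libraries a group and no block for replicate number, small changes of single members are near the limit of detection.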
